A study of Homo sapiens with 8 samples.

Results

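The genes described here are the human ZNF genes with detectable signal in SK-MEL-5 cells, an established melanoma cell line. They were taken by symbol: ZNF, a number and at most 1 trailing letter, on a probe set that the platform annotation gives to a single gene. Of 491 such genes, 288 were kept because their brightest probe set had a mean log2(signal + 16) over the 8 arrays at or above the 40th percentile of all single-gene probe sets, which corresponds to a signal of 39.2 on the arrays. The other 203 ZNF genes lay below this limit and are not counted in any comparison. The 288 are part of 11946 tested genes, out of 18244 with a probe set of their own. Since signal chose them, their brightness is a description: the mean signal of a ZNF gene ran between 39.2 and 1981 with a median of 76.0, against a median of 166 for all tested genes. ZNF510 (39.4), ZNF441 (39.3) and ZNF514 (39.2) lay just inside the limit, and ZNF93 (38.9), ZNF75A (38.9) and ZNF628 (38.7) just outside it.

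Gene expression was measured on 8 Affymetrix arrays in 4 groups of 2, with cells grown in DMEM with 10% fetal calf serum. One group received THZ1, a covalent inhibitor of the kinase CDK7, at 250 nM in 25 µM DMSO for 6 h, and its control received 25 µM DMSO. Another was transfected with an siRNA (siMITF) that targets MITF, the master transcription factor of melanocytes, and its control with a non-targeting siRNA (siCtrl); the labels give no time for the siRNA groups. ERCC spike-in RNA was dosed by cell number, the deposited signals are described as normalized to cell number, and how that was calculated is not given in the sources used here. No label states that the arrays of one group are from different cultures. The p-values therefore cover the variation between these arrays alone, which may be technical. In RNA from a whole culture, fewer cells with a transcript and less of it per cell cannot be told apart.

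C2H2 zinc finger proteins form the largest group of transcription factors encoded in the human genome. Each finger reads a short stretch of DNA, and arrays of fingers give each protein its own binding sequence. Many ZNF genes lie in clusters on chromosome 19 and encode a KRAB domain, which recruits the scaffold protein TRIM28 and, through it, the histone methyltransferase SETDB1, to silence transposable elements and genes. Other ZNF proteins lack this domain and act as promoter factors, as partners of other repressor complexes, or on RNA, ribosomes and the mitotic spindle. CDK7, the target of THZ1, is the kinase of the general transcription factor TFIIH: it phosphorylates RNA polymerase II at promoters and activates other cyclin-dependent kinases.

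Changes are given on 2 scales. On the relative scale each array was shifted by the median of its tested genes' deviations from their 8-array means, so that a change is read against the median gene. The per-cell scale uses the deposited signals as they are. A gene was called when the limma adjusted p (Benjamini-Hochberg over all 11946 genes) was under 0.05. On the deposited scale the median signal of the ZNF genes was 63.5 and 80.0 on the THZ1 arrays, against 96.8 and 120.4 on the DMSO arrays. It was 62.2 and 49.8 on the siMITF arrays, against 72.4 and 88.8 on the siCtrl arrays. Both treated sets thus had lower medians than their controls, with no overlap. For all tested genes the median signal was 149.1 and 209.4 with THZ1 against 203.2 and 252.6 with DMSO, which overlap. With siMITF it was 119.1 and 93.8 against 157.8 and 197.4 with siCtrl, so the lower level there was not particular to ZNF genes. After centring the picture differed between the treatments: the median log2 level of the ZNF genes was 6.35 and 6.22 with THZ1 against 6.60 and 6.58 with DMSO, but 6.72 and 6.75 with siMITF against 6.53 and 6.52 with siCtrl.

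The arrays had the pattern of a melanocytic line. The 7 tested of 8 melanocytic markers, among them MITF, TYR and SOX10, summed to a signal of 36530 to 45080 with THZ1, 41510 to 44890 with DMSO, 17390 to 21580 with siMITF and 27210 to 31270 with siCtrl. None of 7 leukocyte markers and 1 of 6 keratinocyte markers (KRT10) passed the filter. Of 6 fibroblast markers, DCN, LUM and PDGFRA passed, and the fibroblast sum was 2658 to 3449 with THZ1, 2370 to 2843 with DMSO, 745.8 to 978.8 with siMITF and 1539 to 1873 with siCtrl; COL1A1, COL1A2 and COL3A1 lay below the filter. Their part in the results on ZNF genes was not tested. MITF itself had signals of 1747 and 1168 with siMITF against 3436 and 3936 with siCtrl, so the siRNA's target was lower on both arrays. MITF was also lower with THZ1, at 3311 and 4178 against 4670 and 5669 with DMSO. Its relative log2 change there was -0.27 (SE 0.10, limma adjusted p = 0.0498), and it was not called per cell. CDK7 mRNA fell by 0.41 on the log2 scale relative to the median gene with THZ1 (SE 0.07, limma adjusted p = 0.00148).

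With THZ1, falls were the common change among the ZNF genes: 137 of 288 (47.6%) fell relative to the median gene, where 21.1% of all tested genes did, and 9 (3.12%) rose, where 17.7% of all tested genes did. The median change of the ZNF genes was -0.25 (log2), beside 0.04 for all tested genes, and 219 of the 288 changes were below 0. The middle 50% of all 288 changes lay between -0.52 and 0.00. Most of the 137 falls were under 2-fold: 13 ZNF genes (4.51%) fell at least 2-fold, beside 1.57% of all tested genes. On the centred values both THZ1 arrays lay below both DMSO arrays for 185 ZNF genes (64.2%; 32.0% of all tested genes) and above both for 36 (12.5%; 38.0% of all tested genes). On the per-cell scale 78 ZNF genes fell (27.1%, against 10.0% of all tested genes) and 0 rose in limma, where 0.0753% of all tested genes rose; 0 were higher at an unadjusted p under 0.05 as well. Per cell every gene has the same SE of 0.245 and an infinite prior, which makes its smallest p-values too small. With each gene's own variance in limma, 0 of these 78 falls kept the call, and 115 ZNF genes were lower at an unadjusted p under 0.05. The per-cell count of falls was 18 without DMSO array 2 and 29 without THZ1 array 1, and the relative count of rises was 4 without DMSO array 2. With arrays centred on the median signal of tested genes, 96 ZNF genes fell and 33 rose (14.8% and 38.0% of all tested genes), and with quantile normalization 124 fell and 19 rose (18.4% and 20.7%).

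**Figure D1:**
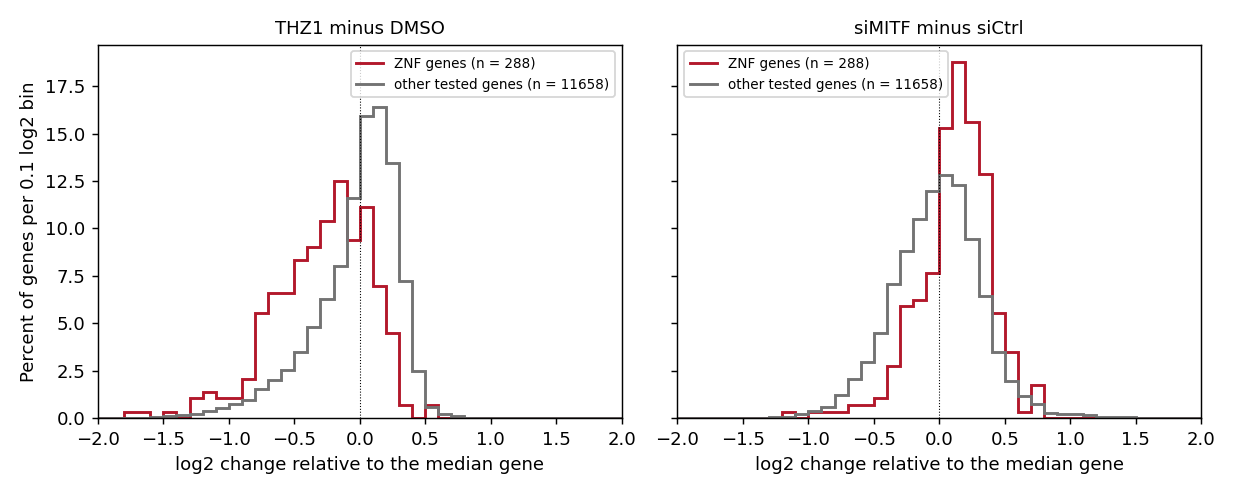
Distribution of the log2 change relative to the median gene for the 288 ZNF genes (red) and the other 11658 tested genes (grey), with THZ1 minus DMSO on the left and siMITF minus siCtrl on the right. The vertical axis is the percent of genes per bin of 0.1. With THZ1 the ZNF genes spread towards falls, with a median of -0.25. With siMITF their median was 0.14.

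The largest fall with the pseudocount of 16 was that of ZNF518B, a partner of the histone methyltransferase G9a and of polycomb complexes. Its signal was 26.3 and 28.5 with THZ1 against 141 and 163 with DMSO, giving a log2 change of -1.75 relative to the median gene (SE 0.11, limma adjusted p = 4.87e-06). Both THZ1 values were below the signal limit of 39.2, far from the DMSO values, so the size of the change rests on the pseudocount: it was -2.21 with a pseudocount of 1 and -1.07 with 64, in place of 16. On the siRNA arrays the gene was at 143 and 111 with siMITF and 157 and 171 with siCtrl, so the low level was seen on the THZ1 arrays. A dimmer probe set of ZNF518B gave -0.46.

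ZNF114 was lower with both treatments. Its signal was 262 and 356 with THZ1 against 981 and 1249 with DMSO, giving a log2 change of -1.60 (SE 0.08, limma adjusted p = 1.81e-06). With siMITF it was 169 and 121 against 489 and 594 with siCtrl, giving a log2 change of -1.17 (SE 0.08, limma adjusted p = 1.15e-05), the only fall of at least 2-fold among ZNF genes with siMITF on the relative scale (0.347%; 0.352% of all tested genes). No treated array overlapped its controls. A second probe set gave -1.68 and -1.31, the same sign and a like size. Per cell ZNF114 fell by 1.80 in each comparison.

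ZNF362 had signals of 156 and 228 with THZ1 against 551 and 728 with DMSO, giving a log2 change of -1.46 (SE 0.09, limma adjusted p = 5.86e-06). ZNF827, which recruits the NuRD complex to telomeres, was at 65.2 and 82.5 with THZ1 against 214 and 248 with DMSO, giving a log2 change of -1.26 (SE 0.11). ZNF367 was at 73.5 and 97.8 with THZ1 against 228 and 276 with DMSO, giving a log2 change of -1.20 (SE 0.08). The groups were apart for each of these genes, as their selection required on the centred values. Their other probe sets did not move as far. For ZNF362 another probe set above the limit gave -0.13, for ZNF827 -0.23 and -0.17, and for ZNF367 0.00, so the size of these falls rests on 1 probe set each.

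The rest of the 10 largest falls were in ZNF7 (-1.20), ZNF212 (-1.18), ZNF557 (-1.18), ZNF281 (-1.16) and ZNF407 (-1.14), all with a limma adjusted p between 5.07e-06 and 3.13e-05. ZNF7 and ZNF557 encode KRAB proteins. ZNF281, a regulator of pluripotency and of the epithelial to mesenchymal transition, had a signal of 273 and 362 with THZ1 against 749 and 925 with DMSO. Its other probe sets gave -0.69 and -0.73, the same direction with a smaller size. ZNF407, which modulates transcription by PPARγ, was at 110 and 150 with THZ1 against 322 and 379 with DMSO, and its other probe sets lay below the signal limit; the mean over its probe sets changed by -0.19 and was not called. ZNF212 was at 78.7 and 87.7 with THZ1 against 223 and 262 with DMSO, and ZNF7 at 87.3 and 111 against 260 and 315. The control and treated arrays of all these genes were apart, which the rule that named them required on the centred values. Over the 137 genes that fell, 70 had another probe set above the limit. In 54 of the 70 all of these probe sets had changes below 0, and 117 of 135 such probe sets did. Among all 288 ZNF genes, called or not, 219 changes were below 0.

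**Figure D2:**
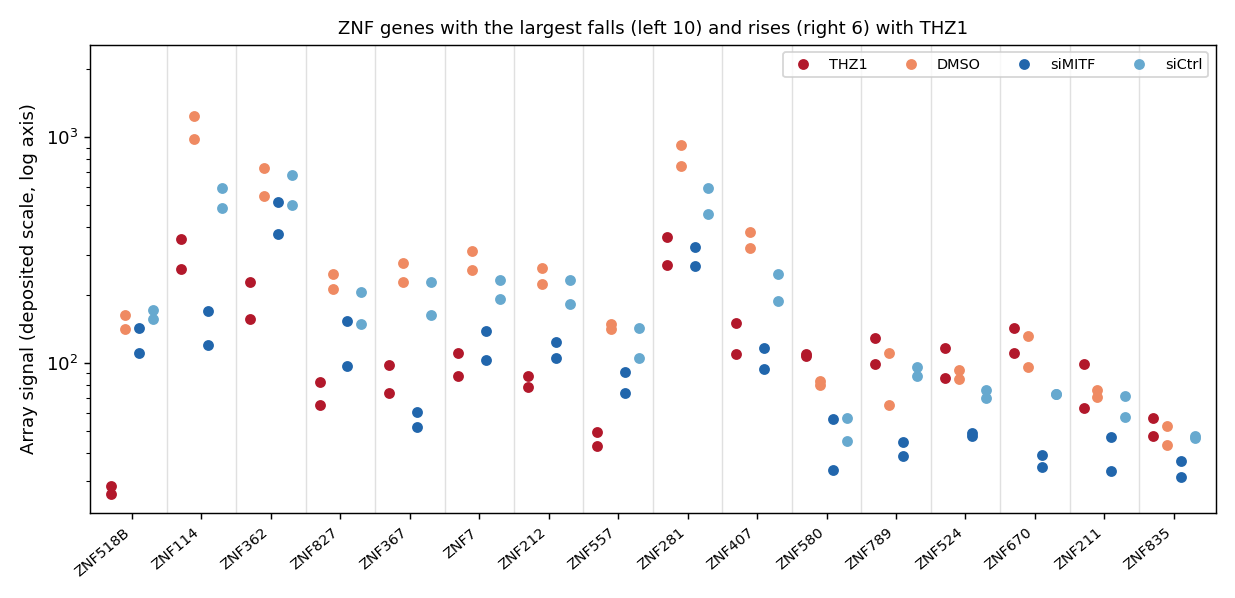
Array signals (deposited scale, log axis) of the 10 ZNF genes with the largest falls and the 6 with the largest rises with THZ1, 1 point per array, for THZ1, DMSO, siMITF and siCtrl. The THZ1 points of the 10 genes on the left lie below both DMSO points. Among the 6 on the right, ZNF580 has both THZ1 points above the DMSO points, and the others overlap on this scale.

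Rises with THZ1 were few and smaller. ZNF580 had signals of 110 and 107 with THZ1 against 82.9 and 80.2 with DMSO, giving a log2 change of 0.55 (SE 0.15, limma adjusted p = 0.017). ZNF789, a KRAB gene, was at 99.2 and 129 with THZ1 against 65.4 and 110 with DMSO, giving a log2 change of 0.55 (SE 0.11), but a dimmer probe set gave 0.07. On the signals its groups overlap. The next rises were ZNF524 (0.35), whose protein binds telomeric repeats, the KRAB genes ZNF670 (0.34) and ZNF211 (0.30), and ZNF835 (0.29), and these overlap on the signals as well. ZNF654 (0.27) also rose, as did ZNF26 (0.28) and ZNF428 (0.24), which were named after their values were seen. The rise of ZNF580 was 0.34 without THZ1 array 1 and 0.38 without DMSO array 2 (limma adjusted p = 0.118 and 0.119), and ZNF524, ZNF670, ZNF211 and ZNF835 also lost their calls without at least 1 of the THZ1 or DMSO arrays, at 0.19 to 0.37. No rise passed the test per cell.

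Falls were seen on and off chromosome 19. Over all tested genes 21.1% fell and 17.7% rose with THZ1. RefSeq places 122 of the 288 genes on chromosome 19, and 49 of them (40.2%) fell and 5 rose with THZ1. Elsewhere 88 of 166 (53.0%) fell and 4 rose. Among the other tested genes of chromosome 19, 82 of 736 (11.1%) fell and 124 (16.8%) rose. Related families were set beside the ZNF genes by symbol, and groups this small are only described. Falls numbered 17 of 31 (54.8%) ZBTB genes, 4 of 7 (57.1%) ZFP genes, 6 of 11 (54.5%) ZSCAN genes and 4 of 5 (80%) ZKSCAN genes. Rises numbered 1, 0, 1 and 0. Of the ZNF genes on _x_at or _s_at probe sets, designs that can detect related sequences, 42 of 89 fell, and 95 of 199 on other probe sets.

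The share of falls was also read within levels of brightness. The tested genes were split into 4 brightness groups of equal size by mean log2 signal, and 138, 97, 36 and 17 ZNF genes lay in these groups, dimmest to brightest. With THZ1 the ZNF genes fell in 42.0%, 53.6%, 52.8% and 47.1% of cases, beside 8.70%, 28.4%, 30.0% and 14.5% of the other genes of the same group. In each of the 4 groups the share of falls among ZNF genes was above that of other genes. Across the 288 genes the THZ1 change had a Pearson r of -0.133 with the mean signal (rho -0.167), beside 0.119 (rho 0.0826) over all tested genes; the mean signal shares its arrays with the change.

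**Figure D3:**
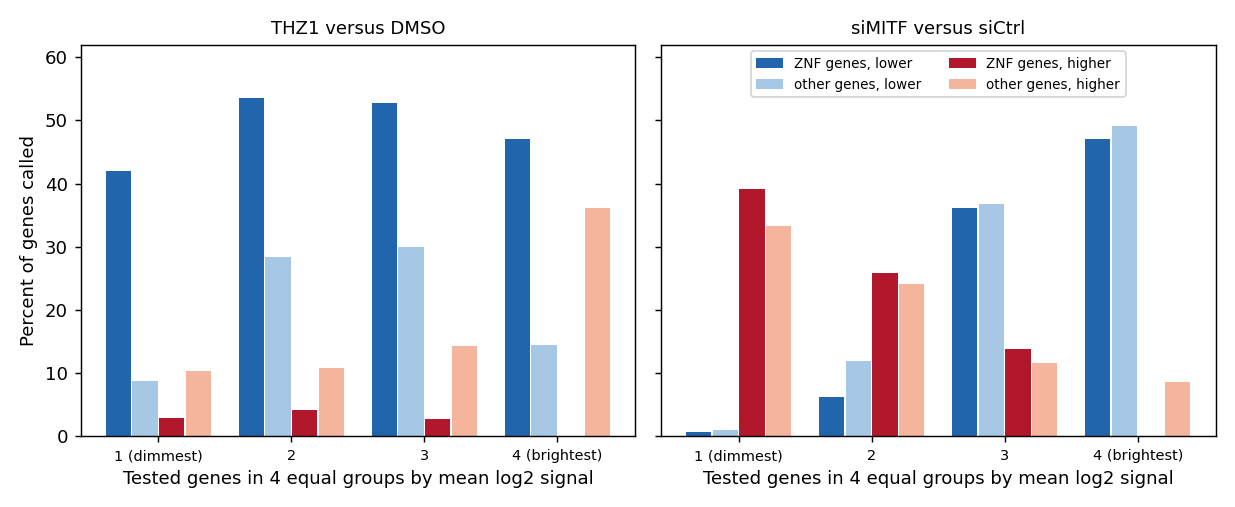
Percent of genes called lower (blue) or higher (red) relative to the median gene in 4 equal groups by mean log2 signal, for ZNF genes (dark) and other tested genes (light), with THZ1 versus DMSO on the left and siMITF versus siCtrl on the right. With THZ1 the lower share of ZNF genes is 42.0% to 53.6%, above the other genes in each group. With siMITF the shares lie nearer to each other, as in the dimmest group, where 39.1% of ZNF genes and 33.3% of other genes were higher.

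Promoter sequence was examined because many of these genes moved together with THZ1. RefSeq promoters of GRCh38.p14, each 250 bases before to 50 after the gene start, were found for 245 of the 288 genes, and short motifs were searched on both strands. The ETS motif CCGGAAG was in 39.6% of ZNF promoters, beside 18.6% of the promoters of tested genes and 10.7% of all 27305 promoters. The share was 40.4% in ZNF genes that fell with THZ1 and 39.2% in those with no call. It was 41.4% on chromosome 19 and 38.1% elsewhere. The CCAAT box CCAAT was in 45.3%, beside 36.5% of tested genes; the GC box GGGCGG was in 69.4%, beside 69.6%; and the TATA box TATAAA was in 2.86%, beside 5.92%. The motifs AAGATGG (YY1), GCATGCG (NRF1) and TGACGTC (CREB/ATF) were in 6.94%, 6.94% and 8.16%, beside 7.62%, 6.44% and 5.58% of tested genes. A match is a description of the letters and not a binding site. The promoters of 4 genes with large falls are shown, since 2 of them, ZNF557 and ZNF407, hold the ETS motif, and ZNF518B and ZNF281 hold GC boxes without it. Capitals mark each motif as found, on either strand, and the sequence of a gene on the minus strand is given in the direction of the gene. ZNF518B lies at chr4:10457377-10457676 (minus strand), ZNF557 at chr19:7069453-7069752 (plus), ZNF281 at chr1:200409987-200410286 (minus) and ZNF407 at chr18:74597620-74597919 (plus).
ZNF518B: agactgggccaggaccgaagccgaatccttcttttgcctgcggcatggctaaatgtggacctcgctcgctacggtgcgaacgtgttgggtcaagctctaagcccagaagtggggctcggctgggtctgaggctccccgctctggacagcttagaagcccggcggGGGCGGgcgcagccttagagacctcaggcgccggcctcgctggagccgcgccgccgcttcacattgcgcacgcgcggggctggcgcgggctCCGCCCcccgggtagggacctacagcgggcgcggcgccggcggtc
ZNF557: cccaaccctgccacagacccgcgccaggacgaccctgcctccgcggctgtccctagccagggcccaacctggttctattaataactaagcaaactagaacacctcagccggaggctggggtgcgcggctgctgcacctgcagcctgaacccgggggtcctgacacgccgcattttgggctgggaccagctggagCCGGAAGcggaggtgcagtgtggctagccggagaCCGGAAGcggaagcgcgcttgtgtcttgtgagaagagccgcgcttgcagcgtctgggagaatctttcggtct
ZNF281: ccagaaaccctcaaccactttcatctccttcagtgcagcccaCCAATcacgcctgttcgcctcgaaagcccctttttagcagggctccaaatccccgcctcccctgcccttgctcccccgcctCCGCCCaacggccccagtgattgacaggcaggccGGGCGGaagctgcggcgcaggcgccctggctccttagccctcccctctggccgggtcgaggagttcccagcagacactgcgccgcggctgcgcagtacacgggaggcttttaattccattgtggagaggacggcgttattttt
ZNF407: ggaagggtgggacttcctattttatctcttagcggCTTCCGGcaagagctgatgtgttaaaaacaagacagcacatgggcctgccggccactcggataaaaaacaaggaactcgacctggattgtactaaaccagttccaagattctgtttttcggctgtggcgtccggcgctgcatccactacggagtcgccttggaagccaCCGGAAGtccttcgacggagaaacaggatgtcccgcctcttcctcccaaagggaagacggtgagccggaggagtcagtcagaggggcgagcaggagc
In ZNF518B the capitals are 2 GC boxes, in ZNF557 and ZNF407 2 ETS motifs each, and in ZNF281 1 CCAAT box and 2 GC boxes.

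Grouped by what the proteins do, ZNF genes of each role group fell with THZ1. Of 12 promoter and enhancer factors 7 fell and 1 rose, and of 15 tested partners of corepressor and chromatin complexes 7 fell and 0 rose. In the second group ZNF609, which partners with NIPBL and the Integrator complex, was at 96.6 and 133 with THZ1 against 234 and 279 with DMSO, giving a log2 change of -0.87 (SE 0.08, limma adjusted p = 3.58e-05). Of 14 genes of RNA, ribosome, spindle and SUMO factors 6 fell and 0 rose, among them ZNF346, a protein that binds double-stranded RNA (-0.70), ZNF451, a SUMO ligase (-0.56), and ZNF638, which acts in splicing and partners with the HUSH silencing complex (-0.53). Of 11 tested KRAB genes with a known target, 5 fell and 0 rose. ZNF382 (-0.69), a KRAB gene, had the largest fall of them. ZNF224, a WT1 partner, was at 65.2 and 77.3 with THZ1 and 65.6 and 73.1 with DMSO. These lists were chosen with earlier results of these data known. Of all tested genes 21.1% fell and 17.7% rose, but the role groups are part of the 288 ZNF genes, of which 47.6% fell and 3.12% rose. The shares of falls in the 4 role groups, 58.3%, 46.7%, 42.9% and 45.5%, lay around that 47.6%. The falls are thus not read as a trait of any role.

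The genes that KRAB proteins act through were also counted. Of 29 listed symbols (1 is an older name of TASOR), 26 were tested: with THZ1 10 (38.5%) fell and 3 (11.5%) rose, beside 21.1% and 17.7% of all tested genes, and the median change was -0.07, beside 0.04. TASOR, of the HUSH complex, fell to 269 and 380 with THZ1 against 691 and 784 with DMSO (log2 change -0.96, SE 0.07, limma adjusted p = 1.35e-05). SMARCAD1, a remodeller bound by TRIM28, fell by 0.89, and SUV39H1, a histone H3 lysine 9 methyltransferase, by 0.78. TRIM28, the scaffold, was called higher on the relative scale: its signal was 534 and 767 with THZ1 against 479 and 719 with DMSO, giving a relative log2 change of 0.32 (limma adjusted p = 0.0359), and on the signals the groups overlap. SETDB1 fell by 0.48 (limma adjusted p = 0.00199). TRIM28 and SETDB1 were named after their values were seen.

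With siMITF, more ZNF genes rose than fell relative to the median gene: 84 of 288 (29.2%) rose, where 19.5% of all tested genes did, and 28 (9.72%) fell, where 24.7% of all tested genes did. Both siMITF arrays lay above both siCtrl arrays for 155 ZNF genes on the centred values (53.8%; 35.3% of all tested genes) and below both for 55 (19.1%; 38.0%). Per cell the direction was the other way: 121 fell (42.0%; 63.4% of all tested genes) and 0 rose in limma (0.326% of all tested genes); 0 were higher at an unadjusted p under 0.05 as well. With each gene's own variance in limma, 0 of these 121 falls kept the call, and 109 ZNF genes were lower at an unadjusted p under 0.05. The per-cell count of falls was 14 without siMITF array 2 and 15 without siCtrl array 2. Per cell the median change was -0.49 for ZNF genes and -0.63 for all tested genes. The rises are thus rises relative to a falling median.

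The siMITF changes varied with brightness. Across the 288 genes the siMITF change had a Pearson r of -0.524 with mean log2 signal (rho -0.488). Within the 4 brightness groups the ZNF genes rose in 39.1%, 25.8%, 13.9% and 0% of cases (dimmest to brightest), beside 33.3%, 24.2%, 11.6% and 8.62% of the other genes. Their falls were 0.725%, 6.19%, 36.1% and 47.1%, beside 0.983%, 11.9%, 36.8% and 49.1%. Each of these ZNF shares was nearer to that of other genes of the same brightness than to the share over all tested genes. The rises also depend on the filter and scaling: 53 rose and 37 fell with quantile normalization, 43 rose with each gene's own variance, and of the 84, 16 kept their call when all genes were tested with no filter on low signals. With a pseudocount of 1 in place of 16, 72 rose. The count of rises was 42 without siMITF array 2, 51 without siMITF array 1 and 50 without siCtrl array 2, and that of falls 18 without siMITF array 2 and 12 without siCtrl array 2. These counts under other settings are not set beside the share of all tested genes under the same setting. The part of low signal in these rises was not tested.

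The named rises were small shifts of dim genes. ZNF425, a KRAB gene, was at 67.7 and 47 with siMITF against 38.3 and 61.4 with siCtrl, giving a relative log2 change of 0.80 (SE 0.09, limma adjusted p = 1.79e-04), and its signals overlap. ZNF627, a KRAB gene, was at 92.1 and 73.3 with siMITF against 63.8 and 80.5 with siCtrl, also 0.80. The pattern of overlapping signals and a centred gap recurs in ZNF449 (0.78), which encodes a SCAN domain, ZNF532 (0.77), a fusion partner in NUT carcinoma, ZNF711 (0.74), which acts with PHF8 at CpG islands, and ZNF264 (0.70). None of these 6 passed the test per cell, where their log2 changes were 0.06 to 0.16.

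The 10 largest falls with siMITF were picked from genes called on the relative scale with both siMITF arrays below both siCtrl arrays. Their call on that scale restates the selection. They also passed the test per cell with the SE that all genes share there, and none did with each gene's own variance. Per cell the median change of all tested genes was -0.63, and 63.4% of them fell. Genes picked as falls relative to that median were thus bound to fall per cell as well, and the pass adds no support. ZNF703, a corepressor of the NET family and a breast cancer oncogene, was at 225 and 179 with siMITF against 513 and 663 with siCtrl, giving a relative log2 change of -0.84 (SE 0.08, limma adjusted p = 6.83e-05) and -1.47 per cell. ZNF622, which acts in the maturation of the large ribosomal subunit, was at 555 and 452 with siMITF against 1164 and 1342 with siCtrl, giving a relative log2 change of -0.66 (SE 0.07). ZNF330, a nucleolar protein, was at 262 and 189 with siMITF against 478 and 654 with siCtrl, giving a relative log2 change of -0.64 (SE 0.10). ZNF367 was at 60.8 and 52.3 with siMITF against 164 and 229 with siCtrl, giving a relative log2 change of -0.90 (SE 0.08), but the mean over its probe sets changed by -0.17 and was not called. No siMITF value of these genes reached the siCtrl values. ZNF697 (-0.76), ZNF267 (-0.56), ZNF800 (-0.53), which represses enteroendocrine differentiation, ZNF600 (-0.48) and ZNF689 (-0.45) also fell. ZNF267 was not called on a probe set other than _x_at or _s_at (-0.36). ZNF600 was not called without siMITF array 2 (-0.29) or siCtrl array 2 (-0.37). Other probe sets of ZNF697 gave -0.04 and 0.31, whereas those of ZNF330 gave -0.49, -0.48 and -0.66. Over the 28 genes that fell with siMITF, 23 had another probe set above the limit. In 13 of the 23 all of these probe sets had changes below 0, and in 10 some did not. By probe set, 38 of 53 had changes below 0.

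**Figure D4:**
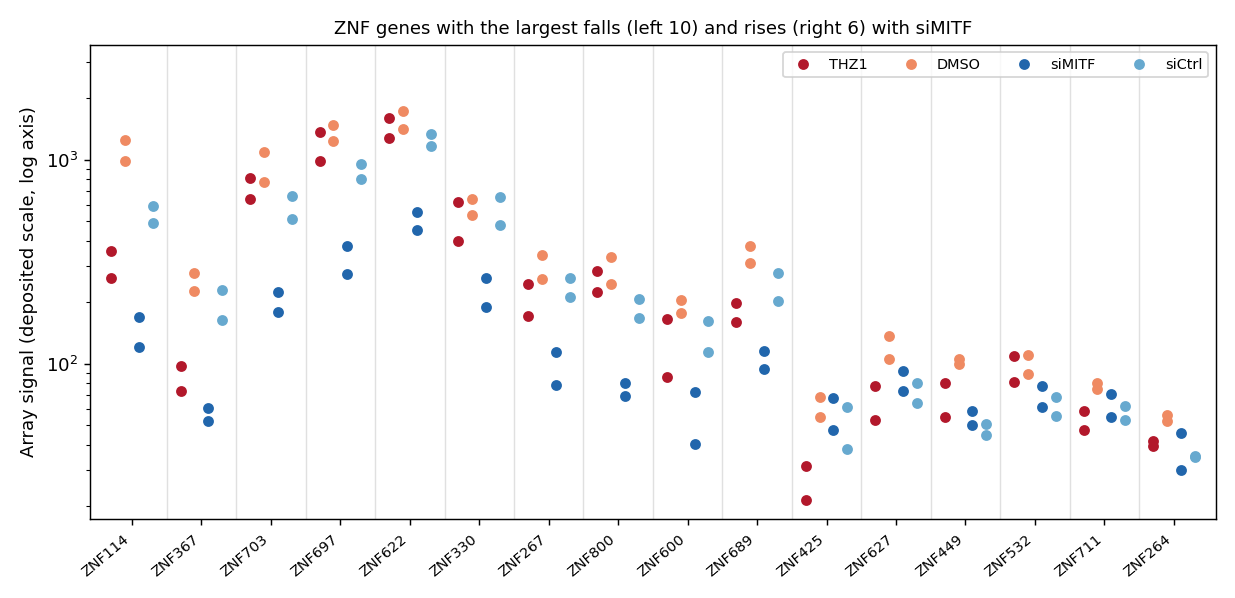
Array signals (deposited scale, log axis) of the 10 ZNF genes with the largest falls and the 6 with the largest rises with siMITF, 1 point per array, for THZ1, DMSO, siMITF and siCtrl. The siMITF points of the 10 genes on the left are below the siCtrl points. Those of the 6 genes on the right overlap or lie close to them, near signals of 30.1 to 92.1.

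By role, 5 of the 12 promoter and enhancer factors rose and 2 fell with siMITF relative to the median gene. Of the 15 partners of corepressor and chromatin complexes 7 rose and 2 fell, and of the 14 RNA, ribosome, spindle and SUMO factors 4 rose and 5 fell. Of the 11 KRAB genes with a known target 6 rose and 0 fell. Of all tested genes 19.5% rose and 24.7% fell, and of the 288 ZNF genes 29.2% rose and 9.72% fell. Groups this small are only described beside those shares. Among the KRAB genes that rose was ZNF274, which recruits SETDB1 to the 3′ ends of other ZNF genes. It was at 66.3 and 60.4 with siMITF against 72.9 and 83.4 with siCtrl (relative log2 change 0.39, SE 0.08, limma adjusted p = 0.00424). Its signals were lower with siMITF, and only after centring was the change above 0. ZNF224 (0.43) and ZNF350 (0.37), a BRCA1 partner, also rose on the relative scale, with signals that overlap. Of the 26 tested genes that KRAB proteins act through, 3 (11.5%) rose and 6 (23.1%) fell with siMITF, near or below the shares of all tested genes. RESF1, a SETDB1 partner, rose by 0.68, where with THZ1 it fell by 0.77, and its signals were 77.6 and 67 with siMITF against 65.4 and 73.9 with siCtrl.

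Among the brightest ZNF genes, ZNF207, a spindle protein, was at 2142 and 2774 with THZ1 against 2491 and 2918 with DMSO. With siMITF it was at 1246 and 994 against 1886 and 2342 with siCtrl, giving a relative log2 change of -0.27 (limma adjusted p = 0.0108). ZNF706 was lower relative to the median gene in both comparisons, with -0.25 and -0.33, and ZNF106, an RNA-binding protein, was called in neither. ZNF664 was also called in neither.

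The changes of the 2 treatments, which share no array, were set against each other gene by gene. On the relative scale the THZ1 change was lower than the siMITF change for 145 ZNF genes (50.3%, beside 20.2% of all tested genes). It was higher for 13 (4.51%, beside 21.4%). These shares varied with brightness. From the dimmest to the brightest group, 53.6%, 54.6%, 36.1% and 29.4% of ZNF genes were lower, beside 19.1%, 30.7%, 20.7% and 7.47% of other genes. Higher were 0.725%, 4.12%, 8.33% and 29.4% of ZNF genes, beside 1.37%, 8.79%, 24.9% and 51% of other genes. Per cell 4 ZNF genes were lower (1.39%, beside 0.946% of all tested genes) and 7 higher (2.43%, beside 9.84%), and single arrays decide these per-cell counts. With each gene's own variance in limma 0 were called, and 10 were lower and 9 higher at an unadjusted p under 0.05. The count of lower changes was 1 without DMSO array 2, siMITF array 1 or siCtrl array 1, and 2 without DMSO array 1, siMITF array 2 or siCtrl array 2. The count of higher changes was 21 without THZ1 array 1 and 0 without THZ1 array 2, DMSO array 1, siMITF array 2 or siCtrl array 2. The largest gaps were those of ZNF518B (-2.04, SE 0.15, limma adjusted p = 2.03e-05), ZNF362 (-1.70), ZNF425 (-1.48), ZNF827 (-1.42) and ZNF627 (-1.35). In the other direction they were ZNF789 (0.81), ZNF697 (0.75), ZNF622 (0.73), ZNF703 (0.69) and ZNF654 (0.63). In ZNF425 and ZNF627 the relative changes ran in opposite directions: ZNF425 changed by -0.68 with THZ1 and 0.80 with siMITF, and ZNF627 by -0.56 and 0.80.

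**Figure D5:**
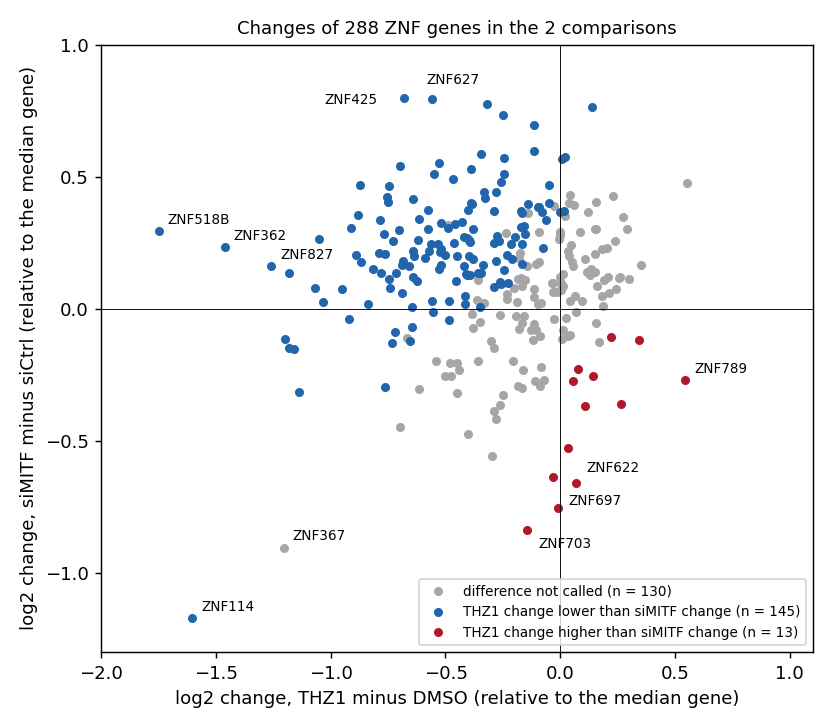
Log2 change with THZ1 (horizontal) against the log2 change with siMITF (vertical), both relative to the median gene, 1 point per ZNF gene (n = 288). Blue marks the 145 genes whose THZ1 change was lower than their siMITF change, red the 13 where it was higher, and grey the 130 not called. ZNF114 and ZNF367 lie at the lower left.

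Across the 288 genes the 2 changes had a Pearson r of 0.0437 (rho -0.0334), beside 0.0357 over all tested genes. Falls with both treatments were called in 11 ZNF genes. That is 8.03% of those that fell with THZ1 and 39.3% of those that fell with siMITF, beside 29.6% and 25.3% for all tested genes. Both shares are near or a little below those of the ZNF genes as a whole, of which 9.72% fell with siMITF and 47.6% with THZ1. With 11 genes, no shortfall of joint falls is read from these gaps. The 11 genes were ZNF114, ZNF200, ZNF24, ZNF267, ZNF367, ZNF407, ZNF410, ZNF576, ZNF689, ZNF706 and ZNF92, of which some were named only after their values were seen. ZNF410, an activator of the NuRD subunit gene CHD4, was at 268 and 384 with THZ1 against 460 and 592 with DMSO, and at 278 and 209 with siMITF against 425 and 499 with siCtrl. Falls with THZ1 and rises with siMITF were called together in 42 genes, 30.7% of those that fell with THZ1 and 50% of those that rose with siMITF, beside 20.8% and 22.5% for all tested genes. These shares are close to those of the ZNF genes as a whole, of which 29.2% rose with siMITF and 47.6% fell with THZ1.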

How the data were processed

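Per the labels' protocols, 100 ng of RNA from SK-MEL-5 cells was hybridised per array with ERCC spike-in RNA. Per the submitters' processing notes, the authors summarised probe sets with MAS5, and the deposited intensity values are linear; the series' design text calls them cell number-normalized. Of 49495 probe sets, 45284 carry a single gene symbol in GEO's platform annotation, 1333 several and 2878 none or a control. Each gene was represented by its brightest single-symbol probe set.

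Values were analysed as log2(signal + 16), so changes of dim genes are understated. The tests used limma 3.58.1 (R 4.3.3; 1 mean per group over the 8 arrays, empirical Bayes, Benjamini-Hochberg adjusted p under 0.05), on the deposited values and after centring, where the relative scale has 5.97 prior and 4 residual degrees of freedom. The code was tested on simulated data. Precision is limited by the 2 arrays per group, and an exact permutation test of 2 against 2 arrays cannot go below 0.333.

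Named genes are the 10 largest falls and 6 largest rises per treatment among calls whose treated arrays both lay beyond the controls, the 5 largest differences in each direction, the 5 brightest ZNF genes, those nearest the filter, and up to 4 per list with the lowest adjusted p. The genes, lists and rules were chosen with earlier results of these data known. Alternatives covered the pseudocount, filter, probe set choice, variance model, arrays used, centring, quantile normalization, replicate block and each array left out. No label pairs arrays by replicate number. Deviations of same-numbered arrays correlated at r = 0.112 between THZ1 and DMSO and -0.184 between siMITF and siCtrl. Subgroups by KRAB domain and finger number were planned but not analysed here. Promoters are RefSeq's of GRCh38.p14.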

Additional observations from a re-analysis of the deposited data

How the results depend on the processing

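Of 242 alternative counts of called ZNF genes, 192 stayed within 1.5 times the main count and 50 did not. Of 853 alternatives for named genes, 816 kept direction and call, 37 kept direction but lost the call, and 0 reversed. The named genes were picked as large calls in these same arrays, so this stability is partly fixed by that choice. Among all ZNF genes called on the relative scale, the mean of probe sets kept 110 of 137 falls and 6 of 9 rises with THZ1. With siMITF it kept 19 of 28 falls and 69 of 84 rises. The sign was opposite in 3, 1, 3 and 0 of these genes. On the relative scale the count of falls with THZ1 was 74 with the stricter filter (60th percentile), under which 73 of 73 still tested genes kept the call, and 102 to 138 with single arrays left out. Rises with THZ1 numbered 3 with no filter, 5 with the stricter filter, 3 with each gene's own variance, 5 with the 4 arrays of the comparison, 33 with median-signal centring and 19 with quantile normalization, and 4 to 9 with arrays left out. With siMITF, falls numbered 43 with no filter and 12 to 30 with arrays left out. Rises with siMITF numbered 48 with the stricter filter, 43 with own variances, 53 with quantile normalization and 42 to 91 with arrays left out; with no filter 90 rose, but 16 of the 84 were among them. For the difference of the changes, 78 were lower with the stricter filter and 22 higher with quantile normalization. The causes were not tested, apart from the stricter filter, which tests fewer genes. Counts in this section are not set beside the share of all tested genes under the same setting, which can move as well.

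Per cell the counts were less stable. Falls with THZ1 numbered 44 with the stricter filter and 18 to 108 with arrays left out. Falls with siMITF numbered 74 with a pseudocount of 64, 79 with the stricter filter and 14 to 158 with arrays left out. For the difference, 2 were lower with a pseudocount of 64 and 2 with a variance trend, 1 higher with that trend, and 1 to 5 lower and 0 to 21 higher with arrays left out. With each gene's own variance in limma, 0 were called in any per-cell comparison, where unadjusted p-values under 0.05 numbered 115 falls with THZ1, 109 falls with siMITF, and 10 lower and 9 higher differences. With the replicate block, 8 differences were lower per cell and the block moved no other count by over 1.5 times: for example 143 ZNF genes fell and 9 rose with THZ1 on the relative scale. A crossed replicate block, added after seeing the data because of the negative correlation of the siRNA pairs, gave per cell 207 falls and 2 rises with THZ1, 263 falls with siMITF, and 70 lower and 79 higher differences. Low signal limits the depth of what can be seen: 203 ZNF genes were below the filter.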

Other observations

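The 3 transcribed pseudogenes among the ZNF genes, ZNF252P, ZNF271P and ZNF321P, had relative changes between -0.52 and -0.17 with THZ1, and 2 of them fell. With siMITF their changes were between 0.02 and 0.36, and 1 rose.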
